A study of Homo sapiens with 9 samples.

Results

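The immediate early AP-1 and EGR factors are a set of 10 genes: FOS, FOSB, FOSL2, JUN, JUNB, JUND, EGR1, EGR2, NR4A1 and IER2. They were chosen by name as members of this group, with earlier results of these data known. They are 10 of the 59050 gene symbols in the count table, of which 51726 had at least 1 count. Their RNA was measured in MEC1, an established B cell line derived from chronic lymphocytic leukemia (CLL). The sample titles of all groups carry the letters PGK, which the labels do not explain. The line was grown as a conventional culture (2D, 3 samples, no culture time given) or bioprinted within a 3D hydrogel and harvested after 7 days (3D_7d, 3 samples) or 14 days (3D_14d, 3 samples). The comparisons ask how transcripts of a CLL line differ between the scaffold and the classical culture, and between an early and a late time in the scaffold. MEC1 is 1 line, and the labels do not say whether the replicates of a condition were separate cultures, so p-values measure the spread between these samples, which may be technical.

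Immediate early genes are transcribed within minutes of a stimulus from factors that are already present in the cell, and most of their mRNAs are short-lived. FOS and JUN family proteins pair through leucine zippers to form AP-1, which binds TRE and CRE elements in DNA. EGR1 and EGR2 are zinc finger factors, NR4A1 (Nur77) is an orphan nuclear receptor and IER2 is a nuclear protein of the same early response. In B cells, engagement of the B cell receptor induces these genes through ERK, calcium and other pathways, and EGR and NR4A transcripts are widely used as readouts of that signal. The protein levels and the activity of the factors were not measured.

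Each library held between 54662799 and 85968686 reads assigned to genes, and levels are given in CPM, that is, counts scaled to the library size after TMM normalization. Of the 9 listed B cell markers, 8 passed the expression filter, while CD5 did not exceed 0.669 CPM. Their summed level ranged from 3351 to 3393 CPM in 2D, from 3850 to 4496 CPM at day 7 and from 4594 to 5274 CPM at day 14. The genes of the CD3 chains, CD3D, CD3E and CD3G, reached at most 0.0380, 1.00 and 0.0540 CPM. The 9 listed T and NK cell markers summed to between 314 and 724 CPM, almost all of it TRAC. This T cell receptor gene averaged 333 CPM in 2D, 473 CPM at day 7 and 651 CPM at day 14. KLRD1 and NKG7 also passed the filter. KLRD1 averaged 0.553 CPM in 2D, 2.31 CPM at day 7 and 4.71 CPM at day 14, and NKG7 reached at most 1.81 CPM. Summed monocyte and stromal markers did not exceed 13.7 CPM. Of these, COL1A1, ITGAM and PDGFRB passed the filter and reached at most 7.38, 4.77 and 4.59 CPM, while LYZ did not exceed 0.0346 CPM. Replicate 1 of day 14 stood apart from the other samples of its group, with a chi-square per gene of 305 and 253 against them, compared with 155 between the remaining pair, and the pairs of 2D and of day 7 differed by 22.5 to 81.9. RNA was extracted with TRIzol, DNase I and a second column step from the scaffolds and with the column kit alone from 2D, so extraction and culture cannot be told apart in any comparison with 2D. Mitochondrial transcripts made up 2.30% to 2.83% of counts in 2D, 1.44% to 1.64% at day 7 and 1.62% to 2.82% at day 14, and their part in the results below was not tested. In bulk RNA, fewer cells with a transcript and less of the transcript per cell cannot be told apart.

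The 10 genes lie on 7 chromosomes of GRCh38. FOS lies at chr14:75278826-75282230 on the plus strand and JUN, a gene of a single exon, at chr1:58780788-58784327 on the minus strand. On chromosome 19 lie FOSB (chr19:45467995-45475179, plus strand), JUNB (chr19:12791486-12793315, plus strand), JUND (chr19:18279760-18281622, minus strand) and IER2 (chr19:13150411-13154911, plus strand). FOSL2 is at chr2:28392802-28417317 and NR4A1 at chr12:52022832-52059507, both on the plus strand. EGR1 is at chr5:138465479-138469303 on the plus strand and EGR2 at chr10:62811996-62819167 on the minus strand. Most members have few exons and a high GC content. NR4A1, with 11 separate exonic blocks, is an exception. The median exonic GC content of the members was 56.8%, compared with 48.3% over the 13463 genes tested, and the median number of separate exonic blocks was 2 compared with 9. A single block was found for 3 of the 10 (JUN, JUNB and JUND) and for 7.01% of all genes tested. Of the exonic bases of IER2, 46.1% are shared with the antisense genes AC011446.3 and AC011446.2, and of those of NR4A1 18.6% with the antisense gene AC025259.3. Since the strand setting of the counting is not stated, reads of these stretches cannot be told apart.

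The DNA before the start sites of the members was searched for elements known from immediate early genes. RefSeq (GRCh38.p14) lists 13 start sites for the 10 genes. Windows from 250 bases before to 50 bases after each start were searched on both strands. DNA outside these windows was not searched, so elements farther from a start would be missed. Sequence is shown for EGR1 and EGR2, which held an SRF element within a window. It is also shown for JUND, whose window held the full CRE, and for FOS, whose window held the TGACG core of the CRE alone. The CArG box, the site of serum response factor (SRF), was present in 2 of 13 windows (EGR1 and the third listed start of EGR2), compared with 1.29% of the 35116 windows of all genes. In EGR1 it occurred at -105 to -96 and at -83 to -74 from the start, and in EGR2 at -71 to -62. The letters TGACG, the core of the CRE bound by CREB and ATF factors, which are thus also counted within each full CRE, was present in 9 of 13 windows from 9 genes, that is, in every member except NR4A1, compared with 24.6% of all windows. The full CRE TGACGTCA was present only before JUND, at -200 to -193, compared with 1.85% of all windows. The TRE TGACTCA was present only in FOSL2, at +4 to +10, compared with 4.95%, and the EGR site GCGTGGGCG in none of the 13 compared with 0.794%. The stretches from 200 to 11 bases before the start are given 5′ to 3′ on the strand of the gene for EGR1 (chr5:138465279-138465468), EGR2 (chr10:62816377-62816566), FOS (chr14:75278628-75278817) and JUND (chr19:18281633-18281822), with matches to these elements in capitals. A match describes the letters only and not the binding of a factor. The members were chosen as immediate early genes, and the windows of all genes were not matched for GC content. The shares of windows are thus a description and not a test. Whether the elements relate to the changes between conditions was not tested.
EGR1: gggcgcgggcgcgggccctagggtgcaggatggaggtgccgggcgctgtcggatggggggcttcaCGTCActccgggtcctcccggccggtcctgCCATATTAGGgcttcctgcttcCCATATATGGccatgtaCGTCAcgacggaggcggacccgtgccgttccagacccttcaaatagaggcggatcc
EGR2: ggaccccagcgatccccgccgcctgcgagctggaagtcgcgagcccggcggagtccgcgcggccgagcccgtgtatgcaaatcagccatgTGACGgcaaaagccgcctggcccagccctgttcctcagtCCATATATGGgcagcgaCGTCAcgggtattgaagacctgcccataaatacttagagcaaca
FOS: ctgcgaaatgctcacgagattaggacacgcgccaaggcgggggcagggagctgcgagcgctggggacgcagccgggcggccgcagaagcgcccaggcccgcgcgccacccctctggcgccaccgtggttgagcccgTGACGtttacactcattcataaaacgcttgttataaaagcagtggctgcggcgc
JUND: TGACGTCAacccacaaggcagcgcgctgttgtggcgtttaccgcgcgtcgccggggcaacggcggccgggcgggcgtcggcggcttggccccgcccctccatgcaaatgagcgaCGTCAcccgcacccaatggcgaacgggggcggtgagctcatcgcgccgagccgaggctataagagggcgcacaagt

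All 10 members passed the filter of a CPM above 1 in at least 3 samples. FOSB passed only through the 2D samples, so that a lower value in 3D was built into its inclusion. To compare genes with each other, CPM were divided by the length of the gene's exons in kilobases. In 2D, JUNB was the most abundant member at 147 ± 5.57 CPM per kb (SD, n = 3), which placed it at percentile 96.8 of all genes tested. IER2 came next at 44.4 ± 0.631 CPM per kb, and was separated from both of its neighbours in this order. EGR2 (17.5 CPM per kb), JUN (16.6) and EGR1 (16.0) followed with overlapping samples. FOS (8.83) and JUND (6.68) overlapped too, and NR4A1 (3.74), FOSL2 (0.641) and FOSB (0.350) closed the order, each without overlap with the one before. JUNB also led at day 7, at 87.2 ± 1.85 CPM per kb, and at day 14, at 97.4 ± 3.06. Behind it, IER2 (17.4 CPM per kb) and EGR2 (15.9) overlapped at day 7, as did JUN (4.41) and JUND (4.39). FOS stood alone at 2.94, EGR1 (0.991) and NR4A1 (0.743) overlapped, and so did FOSL2 (0.180) and FOSB (0.115). At day 14, IER2 (24.5 CPM per kb) stood alone, and JUND (13.8) overlapped with EGR2 (8.48), which overlapped with JUN (4.55). FOS was at 3.05, EGR1 at 1.80, NR4A1 at 1.31, FOSL2 at 0.453 and FOSB at 0.109. From FOS downwards each gene overlapped with the next at day 14.

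At day 7 of culture in the scaffold, most of the set was lower than in 2D. With 1 edgeR quasi-likelihood model of all 9 samples, 7 of the 10 members were called lower at an adjusted p of at most 0.05 (FOS, FOSL2, JUN, JUNB, EGR1, NR4A1 and IER2), compared with 21.2% of all genes tested. No member was called higher by edgeR or by DESeq2, compared with 22.2% of all genes, and none was higher at an unadjusted p below 0.05. Of the 9 members other than FOSB, 7 (the same ones) had every day 7 sample below every 2D sample, compared with 32.4% of all genes tested. The same held for FOSB, which is not counted here since it passed the filter through 2D. The median log2 fold change of the other 9 members was -1.59, compared with -0.0039 over all genes. As the members were chosen with earlier results of these data known, their shares beside all genes are a description and not a test.

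**Figure D1:**
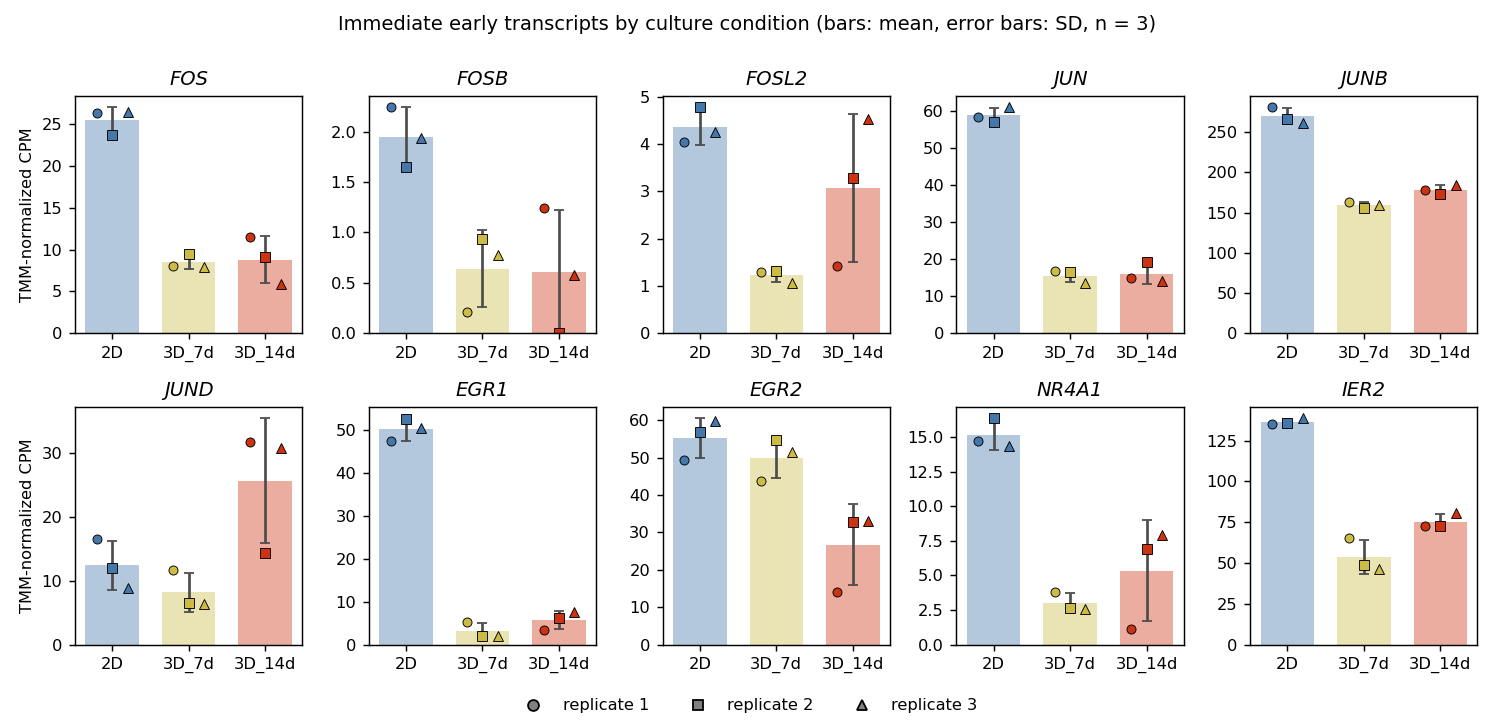
TMM-normalized CPM (vertical axes, linear and starting at 0, with a scale of its own for each gene) of the 10 transcripts in the 3 samples each of 2D, 3D_7d and 3D_14d. Bars show the mean, error bars the SD and symbols the replicates, and EGR1 lies between 47.4 and 52.6 CPM in 2D and between 1.90 and 7.54 CPM in the 6 samples in 3D.

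EGR1 showed the largest change from 2D within the set. Its level in 2D was 47.4, 52.6 and 50.6 CPM in replicates 1, 2 and 3. It was 5.35, 2.08 and 1.90 CPM at day 7, and 3.35, 6.09 and 7.54 CPM at day 14. All 6 samples in 3D thus lay far below all samples in 2D. The log2 fold change was -4.01 at day 7 (SE 0.398, adjusted p = 1.62e-05), which is 16.1-fold lower, and -3.15 at day 14 (SE 0.381, adjusted p = 8.42e-05), which is 8.87-fold lower. The samples of the time points overlapped, and their difference of 0.86 on the log2 scale did not pass the threshold (SE 0.367, adjusted p = 0.0968). It passed in 4 of 19 alternatives. Among them were the analyses without replicate 1 of day 7 (1.51, adjusted p = 0.00648), the sample with the highest EGR1 of its group, and without replicate 1 of day 14 (1.14, adjusted p = 0.0243).

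EGR2, the close relative of EGR1, did not follow it at day 7. It measured 49.4, 56.7 and 59.6 CPM in 2D, 43.8, 54.6 and 51.4 CPM at day 7, and 14.2, 32.8 and 33.1 CPM at day 14. The 2D and day 7 samples overlapped (log2 fold change -0.15, 95% interval -0.70 to 0.41, adjusted p = 0.674), whereas all day 14 samples lay below the others. At day 14 EGR2 was lower than in 2D (log2 fold change -1.05, SE 0.261, adjusted p = 0.00761) and lower than at day 7 (-0.90, SE 0.260, adjusted p = 0.0217). Replicate 1 of day 14 was the lowest sample, and without it these values were -0.74 (adjusted p = 0.00153) and -0.58 (adjusted p = 0.0100). The call between the time points was lost without replicate 2 (-0.83, adjusted p = 0.0724) or replicate 3 (-0.86, adjusted p = 0.0616) of day 7. Per kb of exon, EGR2 and EGR1 were nearly equal in 2D, with ratios of 1.04, 1.07 and 1.18. At day 7 it had ratios of 8.17, 26.1 and 26.9, which came to 4.21, 5.37 and 4.38 at day 14, with no overlap between the 3 conditions.

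NR4A1 was at 14.7, 16.4 and 14.4 CPM in 2D, at 3.82, 2.63 and 2.59 CPM at day 7 and at 1.15, 6.89 and 7.95 CPM at day 14. All samples in 3D were below those in 2D, and day 14 had the widest spread, with replicate 1 as its lowest sample. NR4A1 was lower than in 2D at day 7 (log2 fold change -2.33, SE 0.499, adjusted p = 0.00250) and at day 14 (-1.51, SE 0.483, adjusted p = 0.0274). The call at day 14 was lost without replicate 2 (-1.49, adjusted p = 0.0615) or replicate 3 (-1.59, adjusted p = 0.0520) of 2D. Between the time points the log2 difference was 0.82 (adjusted p = 0.222), and 1.32 without replicate 1 of day 14 (adjusted p = 0.00128).

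Among the partners of AP-1, JUN and FOS were lower in 3D at both time points. JUN was at 58.5, 57.0 and 61.1 CPM in 2D, 16.7, 16.5 and 13.6 CPM at day 7 and 15.0, 19.2 and 14.1 CPM at day 14. The 3D samples of JUN formed a narrow band well below 2D, with log2 fold changes of -1.92 (SE 0.169, adjusted p = 8.53e-06) and -1.87 (SE 0.169, adjusted p = 1.41e-05). FOS was at 26.3, 23.7 and 26.4 CPM in 2D, 8.05, 9.46 and 7.95 CPM at day 7 and 11.4, 9.15 and 5.85 CPM at day 14. No 3D sample of FOS reached the lowest 2D sample, and the log2 fold changes were -1.59 (SE 0.230, adjusted p = 1.98e-04) and -1.53 (SE 0.229, adjusted p = 3.40e-04). Between the time points, the log2 differences of JUN (0.05, 95% interval -0.31 to 0.40, adjusted p = 0.856) and FOS (0.05, 95% interval -0.44 to 0.54, adjusted p = 0.875) did not pass the threshold and changed sign with the processing.

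JUNB, the most abundant AP-1 gene of the set, was at 281, 267 and 262 CPM in 2D, 163, 156 and 159 CPM at day 7 and 178, 173 and 184 CPM at day 14. It fell in both comparisons with 2D and no sample of 3D overlapped with 2D. Its log2 fold changes were -0.76 (SE 0.121, adjusted p = 3.72e-04) at day 7 and -0.60 (SE 0.120, adjusted p = 0.00228) at day 14. Removal of a trend with GC content gave -0.49 (adjusted p = 0.00823) at day 7. The day 14 samples were all above the day 7 samples, but the difference of 0.16 did not pass the threshold (adjusted p = 0.339) and was -0.23 after removal of the GC trend.

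JUND, a JUN family member usually described as constitutive rather than induced, was the only member called higher than in 2D. Its samples measured 16.5, 12.0 and 8.82 CPM in 2D, 11.7, 6.56 and 6.27 CPM at day 7 and 31.8, 14.3 and 30.8 CPM at day 14. All day 14 samples were above all day 7 samples, while day 14 and 2D overlapped in 1 sample each. The difference between the time points (log2 1.65, SE 0.342, adjusted p = 0.00449) was called in all 19 alternative analyses, which gave 1.02 to 2.01. At day 7 the difference from 2D did not pass the threshold (-0.60, 95% interval -1.33 to 0.12, adjusted p = 0.163), and its value was -0.98 without replicate 1 of day 7, -0.40 without replicate 1 of 2D and -0.16 after removal of a trend with GC content (69.7% in the exons of JUND). At day 14 JUND was called higher than in 2D (1.05, SE 0.335, adjusted p = 0.0274), and this call was lost in 5 of 19 alternatives. These were the scaling by total counts (0.85, adjusted p = 0.0765) and the analyses without replicate 2 (0.99, adjusted p = 0.0875) or replicate 3 (0.82, adjusted p = 0.129) of 2D and without replicate 1 (0.87, adjusted p = 0.0659) or replicate 3 (0.90, adjusted p = 0.0937) of day 14.

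FOSL2, which encodes the FOS relative Fra-2, fell at day 7 and was close to its 2D level in part of the day 14 samples. It measured 4.04, 4.78 and 4.25 CPM in 2D, 1.30, 1.31 and 1.06 CPM at day 7 and 1.43, 3.27 and 4.53 CPM at day 14. Replicate 1 of day 14 was thus near day 7 and replicate 3 within the range of 2D. The log2 fold change was -1.83 at day 7 (SE 0.387, adjusted p = 0.00231) and -0.50 at day 14 (95% interval -1.30 to 0.30, adjusted p = 0.311; -0.15 without replicate 1). FOSL2 was higher at day 14 than at day 7 (1.33, SE 0.384, adjusted p = 0.0223), a call lost in 4 of 19 alternatives. Among them were the analyses without replicate 2 (1.39, adjusted p = 0.0551) or replicate 3 (1.26, adjusted p = 0.0715) of day 7 and without replicate 3 of day 14 (0.94, adjusted p = 0.0858).

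FOSB was the least abundant member, at 2.24, 1.65 and 1.93 CPM in 2D, 0.208, 0.931 and 0.779 CPM at day 7 and 1.24, 0 and 0.576 CPM at day 14. The 0 in replicate 2 of day 14 allows a level of up to 0.0571 CPM by counting error alone. All 3D samples were below 2D, but neither difference passed the threshold (log2 -1.60, SE 0.874, adjusted p = 0.156 at day 7; -1.68, SE 0.877, adjusted p = 0.153 at day 14). FOSB was called lower at day 7 without replicate 2 of day 14 (-1.60, adjusted p = 0.0278), with only the 6 samples of the contrast (-1.61, adjusted p = 0.0145) and without a filter on expression (adjusted p = 0.0399). At day 14 it was called lower without replicate 1 of that day (-2.72, adjusted p = 0.0362) and without a filter (adjusted p = 0.0221), and its value was -1.09 without replicate 2.

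IER2, the early response gene with the second highest level of the set per kb, was at 135, 136 and 139 CPM in 2D, 65.5, 49.0 and 46.1 CPM at day 7 and 72.7, 72.7 and 80.8 CPM at day 14. The 3 conditions did not overlap, with day 14 between day 7 and 2D. IER2 fell at day 7 (log2 fold change -1.35, SE 0.153, adjusted p = 3.70e-05) and at day 14 (-0.86, SE 0.152, adjusted p = 9.98e-04). The difference of 0.49 between the time points (SE 0.151, adjusted p = 0.0285) was lost in 7 of 19 alternatives. Among them were the removal of a GC trend (0.26, adjusted p = 0.229) and the analyses without replicate 2 (0.45, adjusted p = 0.0999) or replicate 3 (0.42, adjusted p = 0.104) of day 7 and without replicate 3 of day 14 (0.45, adjusted p = 0.0590).

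At day 14, 7 members were called lower than in 2D (FOS, JUN, JUNB, EGR1, EGR2, NR4A1 and IER2), compared with 17.2% of all genes tested, and JUND was called higher, compared with 19.0%. Of the 9 members other than FOSB, 7 (the same ones) had all day 14 samples below all 2D samples, compared with 25.5% of all genes. FOSB is again left out of this count. The median log2 fold change of the other 9 members was -1.05 and that of all genes 0.02. This comparison uses the same 2D samples as that of day 7, so the lists are not independent. Here too, the shares of members beside all genes are a description, as the members were chosen with earlier results known. Without replicate 1 of day 14, 8 members were lower, with FOSB added, and 0 higher in the edgeR model. FOSL2 was called lower only at day 7 and EGR2 only at day 14, and for both of them the contrast between the time points passed the threshold.

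When day 14 was compared with day 7, FOSL2, JUND and IER2 were called higher at day 14, 3 of 10 compared with 14.5% of all genes tested, and EGR2 lower, 1 of 10 compared with 13.6%. For a set of 10 genes these shares are close to the background. The samples of the time points did not overlap in 4 members that were higher (the same 3 and JUNB), compared with 18.9% of all genes, and in 1 that was lower (EGR2), compared with 20.5%. Without replicate 1 of day 14, 5 members were called higher, with EGR1 and NR4A1 added. Without replicate 2 of day 7, replicate 3 of day 7 or replicate 3 of day 14, 1 was.

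**Figure D2:**
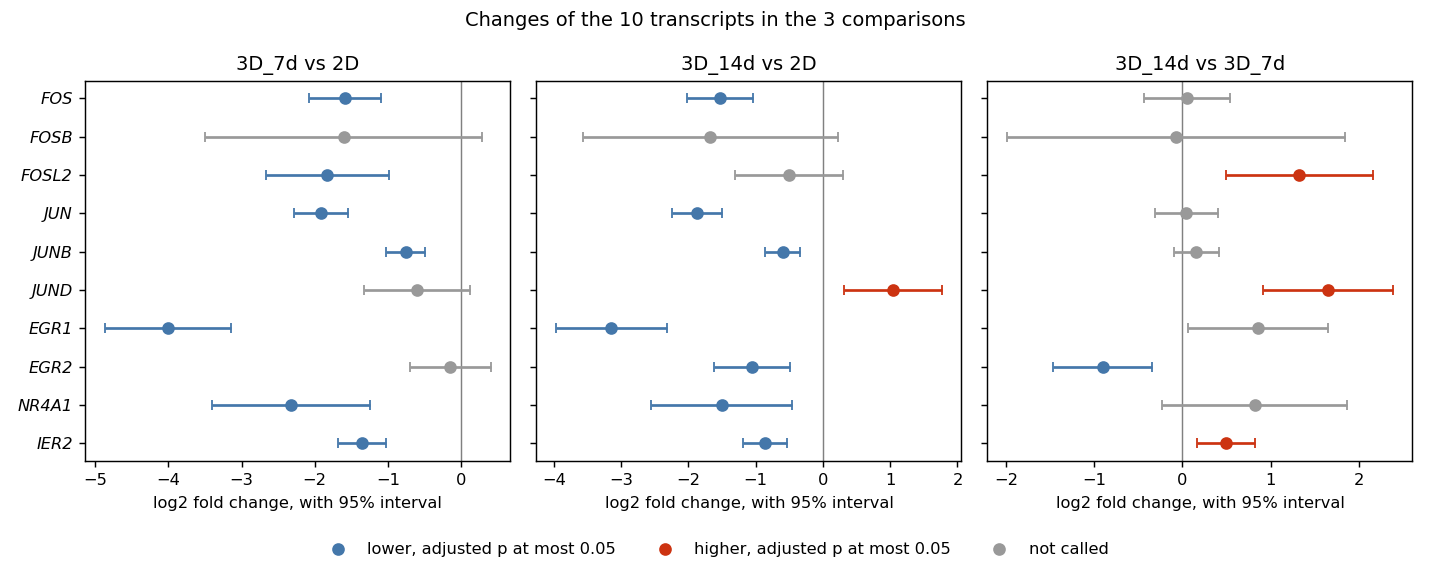
Log2 fold changes (horizontal axes) of the 10 transcripts in the 3 comparisons, from the edgeR model of all 9 samples. Points show the estimate, lines the 95% interval and colour the call at an adjusted p of at most 0.05, and EGR1 lies farthest from 0 at both time points while JUND lies above 0 at day 14.

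The makeup of the AP-1 transcripts of the set was described by the share of each gene in the summed CPM per kb of its 3 FOS and 3 JUN genes. The sum came to 181 ± 7.52 CPM per kb in the 2D samples, 99.2 ± 3.37 at day 7 and 119 ± 7.12 at day 14, without overlap between conditions. JUN family transcripts made up 94.6 ± 0.313% of it in 2D, 96.7 ± 0.425% at day 7 and 97.0 ± 0.692% at day 14. JUNB alone made up 81.7 ± 0.428% in 2D, 87.9 ± 1.53% at day 7 and 81.7 ± 2.93% at day 14. In 2D the share of JUN was 9.22 ± 0.581%, and it was 4.44 ± 0.437% at day 7 and 3.85 ± 0.909% at day 14, below all 2D samples in all 6 samples in 3D. The share of JUND was 3.67 ± 0.983%, 4.39 ± 1.47% and 11.4 ± 3.87%, and was higher in each day 14 sample (13.9%, 6.93% and 13.4%) than in any other sample. The 3 FOS genes of the set made up 5.44 ± 0.313% in 2D, 3.27 ± 0.425% at day 7 and 3.04 ± 0.692% at day 14. Their relative FOSL1 is not a member and is left out of the sum. It was at 4.52 CPM in 2D, 5.57 CPM at day 7 and 3.65 CPM at day 14, and was not called in any comparison. In terms of ratios per kb, JUNB exceeded JUN 9.31, 9.05 and 8.28 times in 2D, 18.8, 18.4 and 22.7 times at day 7 and 23.0, 17.4 and 25.3 times at day 14. JUNB exceeded JUND 17.4, 22.6 and 30.2 times in 2D and 14.2, 24.3 and 25.9 times at day 7, but 5.70, 12.3 and 6.07 times at day 14. These shares describe RNA and were not tested.

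**Figure D3:**
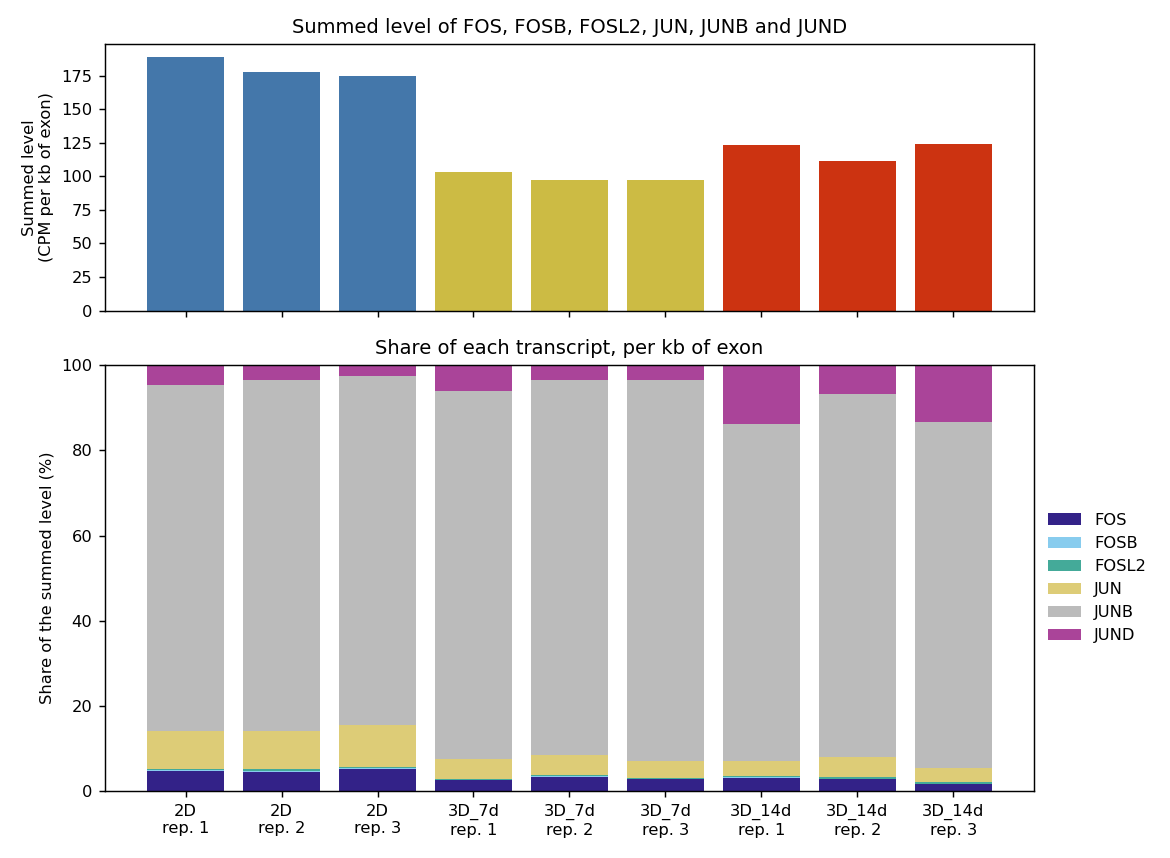
Summed level of FOS, FOSB, FOSL2, JUN, JUNB and JUND in CPM per kb of exon (upper panel, axis from 0) and the percentage of each transcript in that sum (lower panel) in each of the 9 samples. JUNB makes up 79.1% to 89.5% of the sum in every sample, and the band of JUND is widest in the 3 samples of day 14.

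The genes around the set were taken from lists of partners, relatives and regulators, which were also chosen with earlier results of these data known. Their counts stand beside the shares of all genes tested that were called lower or higher, which were 21.2% and 22.2% at day 7, 17.2% and 19.0% at day 14, and 13.6% and 14.5% for day 14 compared with day 7. For AP-1 partners, 10 of 13 listed genes were tested. At day 7, 4 of 10 were called lower than in 2D and the median log2 fold change was -0.49. MAFF, a small MAF protein, was at 1.30 ± 0.991 CPM compared with 5.44 ± 1.33 (log2 fold change -2.06, SE 0.457, adjusted p = 0.00308). BATF3, a partner of JUN proteins in lymphoid and dendritic cells, was at 4.62 ± 0.290 CPM compared with 15.3 ± 3.16 (-1.73, SE 0.208, adjusted p = 5.68e-05). The stress-induced ATF3 was also lower (-1.09, SE 0.226, adjusted p = 0.00203). At day 14 none of the 10 was called by edgeR in comparison with 2D, 4 being higher and 0 lower at an unadjusted p below 0.05, and DESeq2 called 1 higher. Compared with day 7, 5 of 10 were higher at day 14 (median 0.78), with MAFF at 2.73 (SE 0.466, adjusted p = 0.00156), BATF3 at 1.60 (SE 0.208, adjusted p = 3.33e-04) and MAFG at 1.29 (SE 0.253, adjusted p = 0.00341).

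The relatives of the EGR and NR4A members, including the EGR corepressors NAB1 and NAB2, were all tested. EGR4 and NR4A3 passed the filter only through 2D, where they were highest, so that their lower values in 3D were built into their inclusion. Of the remaining 4 genes, 2 were called lower at day 7 (EGR3 and NR4A2) and 1 at day 14 (NR4A2). The call of EGR3 (-1.39, adjusted p = 0.0338) was lost without replicate 1 (-1.44) or 3 (-1.24) of 2D and without replicate 2 (-1.26) or 3 (-1.16) of day 7. NR4A2 (Nurr1) was at 90.5 ± 3.13 CPM in 2D, 34.6 ± 6.03 CPM at day 7 (-1.39, SE 0.246, adjusted p = 7.57e-04) and 31.6 ± 12.2 CPM at day 14 (-1.52, SE 0.247, adjusted p = 5.90e-04). NR4A3 averaged 1.54 CPM in 2D, 0.393 CPM at day 7 and 0.606 CPM at day 14. None of the 6 differed between the time points in edgeR or DESeq2, nor at an unadjusted p below 0.05.

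Of 21 other immediate early genes, 17 were tested. At day 7, 5 were lower and 2 higher (median -0.32), and of the latter KLF10 (0.54, adjusted p = 0.0410) lost its call in 12 of 19 alternatives. RGS1, a regulator of G protein signalling in activated B cells, was at 846 ± 42.7 CPM in 2D, 118 ± 13.1 CPM at day 7 (-2.84, SE 0.236, adjusted p = 5.81e-06) and 302 ± 106 CPM at day 14 (-1.49, SE 0.224, adjusted p = 3.59e-04). Its relative RGS2 was lower at day 7 by a log2 fold change of -1.44 (SE 0.174, adjusted p = 5.74e-05). BTG2, an antiproliferative p53 target, went the other way, with 101 ± 1.24 CPM in 2D and 256 ± 26.3 CPM at day 7 (1.34, SE 0.161, adjusted p = 5.69e-05). At day 14, 4 were lower and 4 higher (median 0.09), and among the latter were BTG2 (1.20, SE 0.161, adjusted p = 1.69e-04), BTG1 (0.78, SE 0.141, adjusted p = 0.00116) and IER5 (1.35, SE 0.263, adjusted p = 0.00184). Between the time points, 8 were higher and 1 lower at day 14 (median 0.35), with KLF6 at 0.82 (SE 0.132, adjusted p = 0.00115), CSRNP1 at 0.97 (SE 0.184, adjusted p = 0.00285) and RGS1 at 1.35 (SE 0.224, adjusted p = 0.00134).

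The listed MAP kinase phosphatases and feedback inhibitors were tested in 13 of 14 cases. DUSP6 passed the filter only through day 14, where it was highest, and is left out of the counts of this list. Of the other 12, 7 were lower and 1 higher at day 7 (median -0.77), and 5 were lower and 1 higher at day 14 (median -0.26). DUSP1, a nuclear MAP kinase phosphatase, was at 29.0 ± 7.13 CPM in 2D, 4.75 ± 1.26 CPM at day 7 (-2.61, SE 0.260, adjusted p = 1.65e-05) and 14.7 ± 2.43 CPM at day 14 (-0.98, SE 0.245, adjusted p = 0.00812). DUSP2, a phosphatase of hematopoietic cells, was lower at day 7 (-1.79, SE 0.303, adjusted p = 5.71e-04) and higher at day 14 than at day 7 (2.11, SE 0.306, adjusted p = 6.48e-04). DUSP4 and DUSP5 moved apart at day 14. DUSP4 was at 146 ± 12.9 CPM in 2D and 29.0 ± 10.3 CPM at day 14 (-2.34, SE 0.221, adjusted p = 1.75e-05), while DUSP5, which acts on ERK in the nucleus, was at 17.1 ± 2.81 and 70.0 ± 20.9 CPM (2.04, SE 0.222, adjusted p = 4.28e-05). Compared with day 7, 4 of the 12 were higher and 2 lower at day 14 (median 0.37).

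Of the 3 ZFP36 proteins, which promote the decay of AU-rich mRNAs, ZFP36 (-1.26, SE 0.230, adjusted p = 8.86e-04) and ZFP36L1 (-0.86, SE 0.201, adjusted p = 0.00431) were lower at day 7 (median -0.86). ZFP36L1 was also lower at day 14 (-0.99, SE 0.202, adjusted p = 0.00248), when 1 of the 3 was lower and 1 higher (median -0.47). The higher one, ZFP36L2 (0.91, adjusted p = 0.0447), lost its call in 9 of 19 alternatives. Between the time points, 2 of the 3 were higher at day 14 (median 0.79).

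Upstream of the set, all 21 listed kinases of the ERK, JNK and p38 cascades and all 12 SRF, ternary complex and CREB factors were tested. At day 7, 5 of the 21 kinases were higher, a share close to that of all genes, and 1 was lower (median 0.01). At day 14, 9 of the 21 were higher and 1 lower (median 0.37). The lower one, MAPK8 (-0.60, adjusted p = 0.0476), lost its call in 8 of 19 alternatives. RPS6KA4 (MSK2), which phosphorylates CREB, was higher at day 7 (1.53, SE 0.176, adjusted p = 4.12e-05) and at day 14 (1.02, SE 0.174, adjusted p = 7.99e-04), and so was ARAF (1.06, SE 0.137, adjusted p = 9.34e-05, and 0.77, SE 0.136, adjusted p = 0.00100). MAPK3 (ERK1) was lower at day 7 (-0.90, SE 0.170, adjusted p = 0.00112), and higher at day 14 than at day 7 (1.06, SE 0.170, adjusted p = 0.00114). Between the time points, 4 kinases were higher and 2 lower (median 0.03). Of the 12 transcription factors, 2 were higher and 1 lower at day 7 (median -0.04), neither above the share of all genes, and the lower one, CREB1 (-0.41, adjusted p = 0.0436), lost its call in 8 of 19 alternatives. At day 14, 3 of the 12 were higher (median 0.22), where edgeR called 0 lower, with 1 at an unadjusted p below 0.05 and 1 called by DESeq2. The SRF coactivator MRTFA was higher at both time points (0.93, SE 0.150, adjusted p = 4.12e-04, and 0.66, SE 0.150, adjusted p = 0.00442). In comparison with day 7, 1 factor, SRF, was higher at day 14 (0.73, adjusted p = 0.0451; median of the list 0.13), a call lost in 10 of 19 alternatives.

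**Figure D4:**
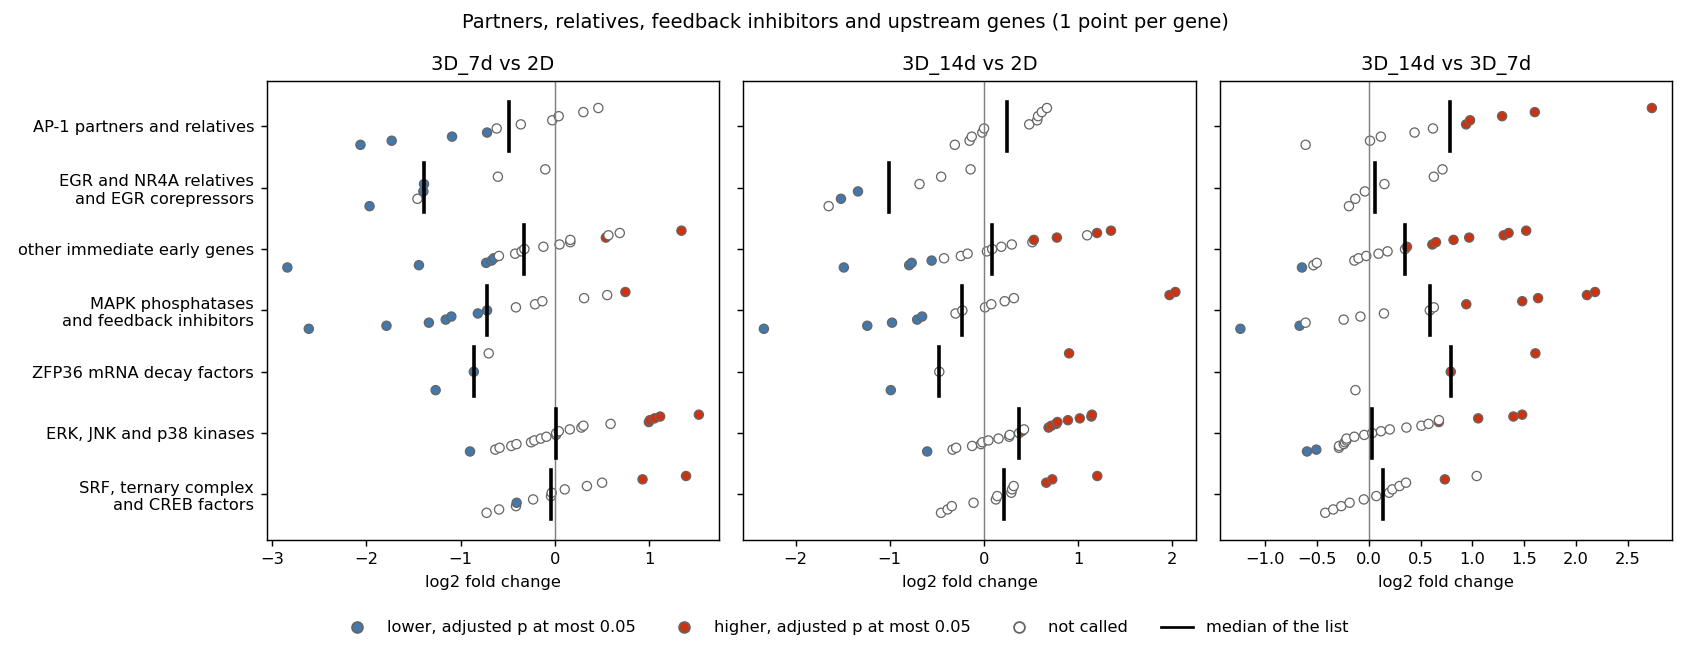
Log2 fold changes (horizontal axes) of the tested genes of 7 lists of partners, relatives, inhibitors and upstream factors in the 3 comparisons, with 1 point per gene, filled where the adjusted p was at most 0.05, and a vertical bar at the median of each list. The medians of the AP-1 partners lie at -0.49 at day 7 and 0.24 at day 14, while those of the kinases lie at 0.01 and 0.37. Points and bars include EGR4, NR4A3 and DUSP6, which passed the filter only through the group where they were highest. With EGR4 and NR4A3, the median of the EGR and NR4A relatives at day 7 is -1.39, compared with -0.996 without them. With DUSP6, the median of the phosphatases and inhibitors at day 7 is -0.72, compared with -0.77 without it.

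Genes with a course over the 9 samples most like that of single members were found by the Euclidean distance of centred log2 CPM among all tested genes. They describe likeness of course only, as the mean level of each gene was removed. For FOS they were EEF1A1 (distance 0.463), PIF1 (0.542) and RPS2 (0.620), and for JUN they were CHEK2 (0.345), HSD17B8 (0.414) and HMGB2 (0.483). The nearest of EGR1 were HIST1H2BG (1.13), AC109326.1 (1.18) and GAS2L3 (1.27), and those of NR4A1 were MDS2 (1.11), FAM72D (1.26) and SMCO2 (1.27). EEF1A1 was at 2669 CPM in 2D, 753 CPM at day 7 and 887 CPM at day 14, and CHEK2 at 45.5, 13.2 and 13.8 CPM. The nearest genes of NR4A1 were below 1 CPM on average in 3D. In 2D, at day 7 and at day 14, MDS2 averaged 1.46, 0.242 and 0.644 CPM and SMCO2 1.23, 0.420 and 0.563 CPM. FAM72D averaged 4.27, 0.859 and 0.841 CPM. With a filter of 1 CPM, a higher level in 2D may be built into the inclusion of such genes. No other member of the set was among the 3 nearest genes of FOS, JUN, EGR1 or NR4A1.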

How the data were processed

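Single reads of 100 nt from SMART-Seq v4 libraries, made from 2 ng of RNA, were measured in 9 MEC1 samples. Per the labels and methods, the authors used Trimmomatic (0.39) for trimming, STAR (2.5.3a) for alignment to GRCh38 and featureCounts (1.6.4) for assignment to GENCODE genes. The deposited values are raw counts per gene symbol, without normalization. How strand and multiple alignments were treated is not given in the sources used here. Between 54662799 and 85968686 reads per sample were assigned, and the spread between replicates exceeded counting error.

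A gene was kept when 3 or more samples had a CPM over 1, which left 13463 genes. In R (4.3.3), edgeR (4.0.16) was used for TMM factors, 1 negative binomial model of 3 groups and the quasi-likelihood test of 3 contrasts. Benjamini-Hochberg adjustment was applied over all genes kept (threshold 0.05). Alternatives were DESeq2 (1.42.0), other scalings and filters, only the 6 samples of a contrast, a replicate block, removal of length or GC trends (loess span 0.4; the GC trend was added after seeing the data) and each sample left out. The scripts were tested on simulated data. Exon lengths came from the deposited table, loci and GC content from GRCh38, and promoters from RefSeq. The members and gene lists were chosen with earlier results of these data known. Named were all members, at most 3 called genes per list, contrast and direction by p-value, and the 3 nearest genes of 4 members. Correlations of deviations from the group means between samples with the same replicate number ranged from -0.100 to 0.185 (9 pairs). Between samples with different numbers they ranged from -0.135 to 0.0807 (18 pairs). The numbers were not treated as pairs in the main model.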

Additional observations from a re-analysis of the deposited data

Results flagged for a closer look

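Transcripts of the set and of its lists were singled out where the contrast of day 14 against day 7 passed the edgeR threshold, so that their difference from 2D was not the same at both time points. Among the 10 members these were JUND, with a log2 fold change of 1.65, FOSL2 with 1.33, IER2 with 0.49 and EGR2 with -0.90. Among AP-1 partners they were MAFF (2.73), BATF3 (1.60) and MAFG (1.29), and among other immediate early genes KLF6 (0.82), CSRNP1 (0.97), RGS1 (1.35) and PLK3 (-0.64). The phosphatases DUSP1 (1.63), DUSP2 (2.11) and DUSP5 (1.48) were higher at day 14, while DUSP4 (-1.24) and DUSP10 (-0.67) were lower. The mRNA decay factors ZFP36 (0.79) and ZFP36L2 (1.61), the kinases MAP2K2 (1.48), MAPK3 (1.06) and MKNK2 (1.40) and the factor SRF (0.73) were higher, and the kinases MAPK14 (-0.60) and RPS6KA4 (-0.51) lower.

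Of the genes outside the set, 5 lost this call when single libraries were left out. PLK3 lost it in 2 of 19 alternatives, among them the analysis without replicate 3 of day 7 (-0.52, adjusted p = 0.102). ZFP36, whose samples overlapped, lost it in 5 of 19 alternatives. Among them were the analyses without replicate 2 (0.69) or 3 (0.76) of day 7 or replicate 3 of day 14 (0.47). SRF lost it in 10 of 19 alternatives, with values from 0.54 to 1.01, MAPK14 in 11, with values from -0.76 to -0.34, and RPS6KA4 in 12, with values from -0.87 to -0.33. In edgeR's test, adjusted p-values over the alternatives reached 0.156 for SRF, 0.117 for MAPK14 and 0.151 for RPS6KA4. Replicate 1 of day 14 was the lowest sample of its group for EGR1, EGR2, NR4A1 and FOSL2 and the highest for FOS, FOSB and JUND. The part of that library in these differences was not tested beyond leaving it out.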

How the results depend on the processing

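FOS, JUN, JUNB, EGR1 and IER2 stayed lower than in 2D at both time points in all 19 alternatives, as did FOSL2 and NR4A1 at day 7 and EGR2 at day 14. Of 570 alternative log2 fold changes of the members, 528 kept direction and side of the threshold, 20 lost the call, 10 gained it and 12 changed sign. All sign changes were between day 14 and day 7, in values that were not called. FOS was at -0.012 with total counts alone, and from -0.16 (without replicate 1 of day 14) to 0.28 with a replicate left out. JUN was at -0.00497 with total counts, -0.00133 without a filter and -0.044 after removal of the GC trend, and its values with a replicate left out reached from -0.10 to 0.14, with -0.02 without replicate 3 of day 7 and -0.10 without replicate 2 of day 14. FOSB was at 0.15 after removal of the length trend, 0.32 and 0.12 without replicates 2 and 3 of day 7 and 0.51 without replicate 2 of day 14, and leaving out a replicate gave values from -1.11 to 0.51. JUNB was at -0.23 after removal of the GC trend. Of members higher at day 14 than in 2D, total counts gave 0 in edgeR, as against 1, and leaving out a replicate 0 to 1. Between the time points, only the 6 samples of the contrast gave 1 higher member as against 3, and leaving out a replicate gave 1 to 5 higher and 0 to 1 lower. By counts not divided by length, JUNB made up 72.4% in 2D, 82.4% at day 7 and 76.7% at day 14 of the summed FOS and JUN transcripts of the set. The causes were not tested.

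Total counts alone shifted the median of all genes by -0.16 at day 7 and -0.21 at day 14, and gave 2156 genes higher and 3580 lower at day 7 (2985 and 2853 with TMM) and 1603 and 3248 at day 14 (2557 and 2318). With a replicate block, 7 members were lower at day 7 and 7 at day 14, 1 was higher at day 14, and 3 were higher and 1 lower between the time points, as without it. The labels do not say whether replicate numbers pair the samples. Between 2D and day 14 each sample correlated best with its own number (0.0931, 0.108 and 0.185), which was not so for day 7. Samples with different numbers correlated at most at 0.0807. A pairing of 2D with day 14 can thus not be excluded. Of the other genes named, 100 of 1245 alternative values lost the call and 0 changed sign. FOSB, at 0 to 67 counts per sample in 3D, was the member with the least depth.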
